A study of Mus musculus with 2 samples.

Results

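Among the 1900 mouse miRNA probes of the array, 200 name the 5p arm of a miRNA numbered from miR-6896 to miR-7094. The rule that picks the 200 probes uses the name alone and no measured value, though the number range was set with earlier results of these data known. Each has 1 spot on each array, and 201 probes for 3p arms of the same numbers served as a reference. The names miR-7094-1-5p and miR-7094b-2-5p carry a locus number and were left out. Total RNA came from mononuclear cells of the lamina propria of the colon of male Balb/c mice. The mice were either germ-free, without any microbes, or specific pathogen-free (SPF), with a gut microbiota. The labels give no age, no treatment and no number of animals behind a sample. Each group has 1 array, so no value has a replicate error, no test between the groups was run, and the number of arrays limits the precision.

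A mirtron is a miRNA precursor that is cut out by splicing. A canonical precursor is cut by Drosha, whereas a short intron folds into a hairpin once its lariat is opened and then goes straight to Dicer. In a tailed mirtron splicing makes only one end of the hairpin, and the surplus of the intron is trimmed away. A hairpin that ends at the 3′ splice site has a 3p arm that runs through the pyrimidine-rich tract to the closing AG, so the 5p arm paired with it is rich in purines.

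The mature sequences below belong to the brightest of the 200 probes that have an entry in RefSeq's table (GRCm38.p6), and are shown because the results turn on their brightness and their share of G. They are written 5′ to 3′, with the seed (bases 2 to 8, which pair with a target) in capitals. RefSeq's table held 176 of the 200 members (88.0%). miR-7042-5p, the second brightest by the mean of both arrays, and miR-6980-5p are among the 24 without an entry.
miR-7005-5p: cCUGGGGAugggaggaccagca
miR-6955-5p: aGGGCCUCaggacucaggagguga
miR-6968-5p: aGGGGGCGagggggcccugugg
miR-6988-5p: gGGGUGGAgagcugaggccca
miR-6931-5p: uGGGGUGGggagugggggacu
miR-6944-5p: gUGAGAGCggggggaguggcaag
miR-7044-5p: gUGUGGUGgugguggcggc
miR-7052-5p: uGUGGGAAgguggaggccuuu
miR-7036a-5p: aGCGGGGUucgguggggaagaga
miR-7053-5p: uGGGGAAAggcaggcuacugg
miR-7045-5p: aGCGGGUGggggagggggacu

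Most of the members lie in hairpins that close an intron without opening it. Of the 176 members with a position, 175 lay inside an intron of a protein-coding gene on the same strand in GENCODE M21 (GRCm38). The exception, miR-7025-5p, overlapped an exon of Pdgfra, the platelet-derived growth factor receptor alpha. Where several annotated introns held a member, the one with ends nearest to its arms was taken, which favours short distances. For 167 of the 175 the 3p arm had a position too, and in 130 it ended on the last base of the intron. Within 2 bases of the intron's end the count was 155. The 5p arm started within 2 bases of the intron's start in only 16 members. Of the 167, both arms lay within 2 bases of the intron's ends in 10, the 3p arm only in 145, the 5p arm only in 4 and neither in 8. The other 8 were not placed. Host introns ran from 66 to 36269 bases, with a median of 465. In 26 members the 5p arm overlapped an annotated exon of some transcript.

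**Figure D1:**
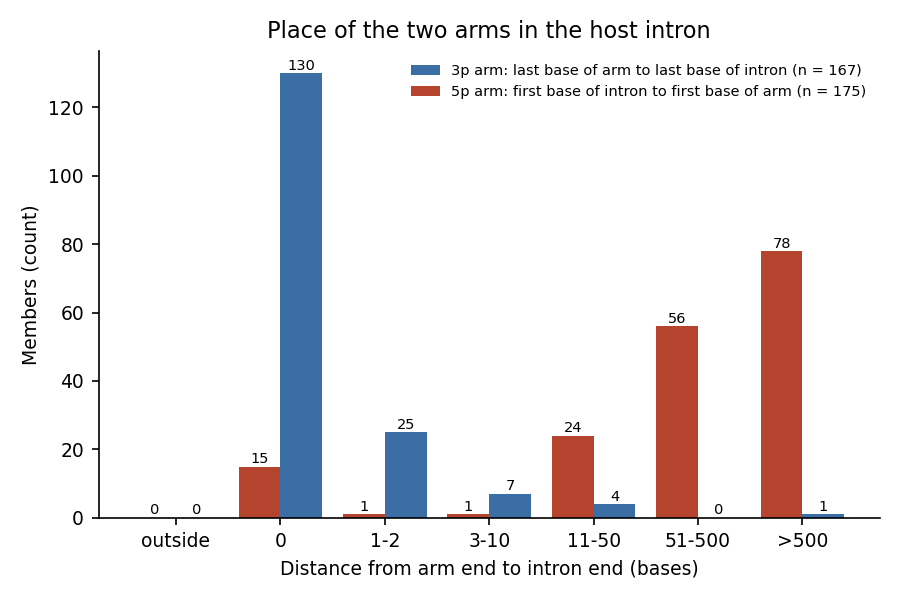
Number of members (vertical axis) by the distance in bases between an arm and the end of its host intron (horizontal axis, binned). The 3p arms (blue, 167 members) pile up at distance 0 with 130 members, while 15 of 175 5p arms (red) start on the first base of the intron.

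The hairpins of miR-7005, the brightest, and miR-6944, the brightest of the 10 with both arms at the intron's ends, show both layouts, with the 5p arm in capitals. Mir7005 lies at chr2:180179755-180179823 on the minus strand, in an intron of 81 bases of Lama5, which encodes the alpha 5 chain of laminin in basement membranes. Its 5p arm starts 17 bases into the intron. Mir6944 lies at chr13:55477681-55477776 on the minus strand and is the whole 96-base intron of Dbn1, which encodes the actin-binding protein drebrin. Both end in the AG of the splice site, and the Mir6944 hairpin opens with the GU of the other splice site.
miR-7005: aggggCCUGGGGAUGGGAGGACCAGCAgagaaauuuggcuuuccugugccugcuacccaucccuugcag
miR-6944: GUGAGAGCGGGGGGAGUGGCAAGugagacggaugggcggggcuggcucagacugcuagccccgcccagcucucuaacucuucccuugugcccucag

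The 5p arms were rich in G. The median G share was 43.7% over the 176 members with a sequence, against 26.1% over 1261 other miRNAs on the array that are not the 3p arms of the same numbers. The 3p arms were the mirror image, with a median of 40.9% C and 14.3% G (177 arms), where the members had 13.6% C. A run of GGGG stood in 67 members (38.1%), in 2 of the 3p arms (1.13%) and in 113 of the other 1261 miRNAs (8.96%). Only the given strand of each mature sequence was searched, and a longer run of G counts once. The median length was 22 bases in the members, the 3p arms and the others. U was the first base in 84 members (47.7%), against 37.5% of the other miRNAs.

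The members were bright on both arrays. Net intensity, the deposited spot intensity minus the mean of the blank spots of the same array, had a median of 326 (germ-free) and 382 (SPF) over the 200 members. The medians were 59.0 and 71.1 over the 3p arms of the same numbers and 40.4 and 45.7 over the remaining 1499 miRNA probes. Among the 475 brightest miRNA probes were 132 members in the germ-free sample and 131 in the SPF sample, or 66.0% and 65.5% of the 200, against 20.2% of all other miRNA probes in either sample. The members, 200 of the 1900 miRNA probes, held 23.1% of the net miRNA signal on each array. The largest single part of it came from miR-7005-5p, at net 40202 (germ-free) and 42579 (SPF). These are spot brightnesses: probes differ in how well they bind, so an order of brightness is not an order of abundance. Fluorescence at a probe also does not tell a mature miRNA from another fragment of its host transcript that binds there.

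**Figure D2:**
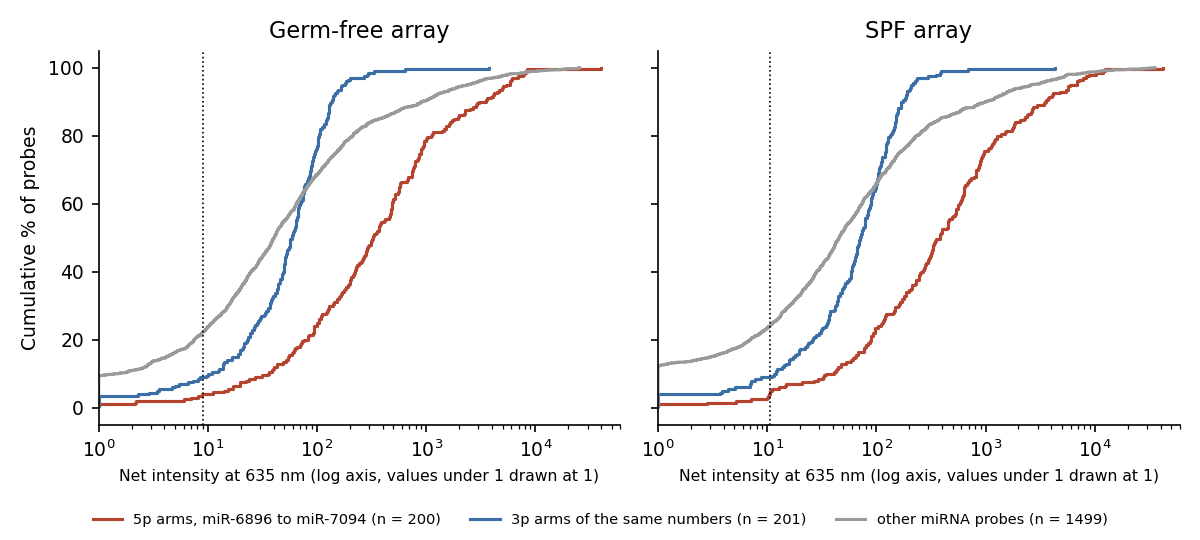
Cumulative percentage of probes (vertical axis) against net intensity (horizontal log axis) on each array, for the 200 5p arms (red), 201 3p arms (blue) and 1499 other miRNA probes (grey). The dotted line is the floor, and the red curve lies to the right of both others over most of the range, with medians of 326 and 382.

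A floor at the mean + 2 SD of the blank spots (net 9.05 and 10.7) was passed by 192 members in the germ-free sample and by 190 in the SPF sample. On both arrays 189 passed (94.5%), against 75.4% of the 1700 other miRNA probes. That floor is low: 66.7% (germ-free) and 71.8% (SPF) of spots that carry no probe at all exceeded it too. A stricter floor, the mean + 2 SD of those spots, left 176 members (88.0%), against 50.9% of the others. Under the first floor on both arrays were 7 members: miR-6902-5p, miR-6920-5p, miR-6936-5p, miR-6938-5p, miR-6951-5p, miR-7029-5p and miR-7064-5p. miR-7061-5p, miR-6976-5p and miR-6903-5p passed it on the germ-free array only, at net 17.2, 16.9 and 11.04. miR-7021-5p passed it on the SPF array only, at 12.8. All 4 lay under the stricter floor on both arrays.

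miR-7005-5p was the brightest miRNA probe of each array, at net 40202 (germ-free) and 42579 (SPF). No other member was among the 10 brightest probes of either array. miR-7042-5p followed at 8275 and 12467, which put it in place 23 and 14 of all miRNA probes. miR-6955-5p stood at 7715 and 11999, in an intron of Gga1, which encodes a clathrin adaptor of the Golgi. miR-6968-5p, in Phf1, which encodes an accessory subunit of the Polycomb complex PRC2, stood at 7811 and 10162. The step from miR-7005-5p to the next members was thus far wider than any step among them.

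miR-6988-5p, in Syvn1, the ubiquitin ligase of endoplasmic reticulum-associated degradation also called Hrd1, stood at 8399 (germ-free) and 6820 (SPF). It was the only one of the 12 brightest with a lower net intensity on the SPF array before scaling. miR-6931-5p in Dcakd stood at 6896 and 8271, and miR-6944-5p at 5843 and 8771. miR-7044-5p in Rasgef1a stood at 5861 and 7870, and miR-7052-5p in Josd2, a deubiquitinase gene, at 5938 and 7204. miR-7036a-5p, in Srrt, whose product Ars2 takes part in RNA processing, stood at 6056 and 6865. miR-7053-5p, in Pold1, the catalytic subunit of DNA polymerase delta, stood at 4924 and 5894. miR-7045-5p, in Chd4, the chromatin remodeller of the NuRD complex, stood at 5025 and 5449.

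The 5p arm was the brighter arm in most precursors. All 200 members had a 3p probe of the same number and letter, and the 5p probe was brighter for 172 (86.0%) in the germ-free and 174 (87.0%) in the SPF sample. It was brighter on both arrays for 169, the 3p probe was brighter on both for 23, and the order differed between the arrays for 8. For 521 other precursors with both arms on the array the 5p probe was brighter for 53.6% and 52.8%. The median ratio of 5p to 3p, from the geometric mean of both arrays with values under the floor set to it, was 6.35 in the members (quartiles 2.004 and 20.01) and 1.0 in the other precursors. Precursors with neither arm above the floor on either array were left out of the members' median. In the median of the other precursors they were kept, with a ratio of 1, so the 2 medians are not fully alike. Among the members, the 5p probe was at least 10-fold brighter in 72 of the 200 and the 3p probe in 3.

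miR-7005 led with a ratio of 454: its 3p probe had net intensities of 80.2 and 104. The next were miR-7042 at 278, miR-6988 at 184, miR-6989 at 179 and miR-6931 at 168. miR-7000 was the reverse: its 5p probe gave 104 and 118, while its 3p probe gave 3766 and 4320, the highest of the 201 3p arms. Mapk8ip1, which encodes a scaffold of the JNK pathway, holds it in an intron of 170 bases. For miR-6920, miR-6938, miR-6902 and miR-6976 the 5p probe lay at or under the floor on at least 1 array and the 3p probe above it on both, with 5p to 3p ratios of at most 0.0867, 0.120, 0.122 and 0.0971.

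**Figure D3:**
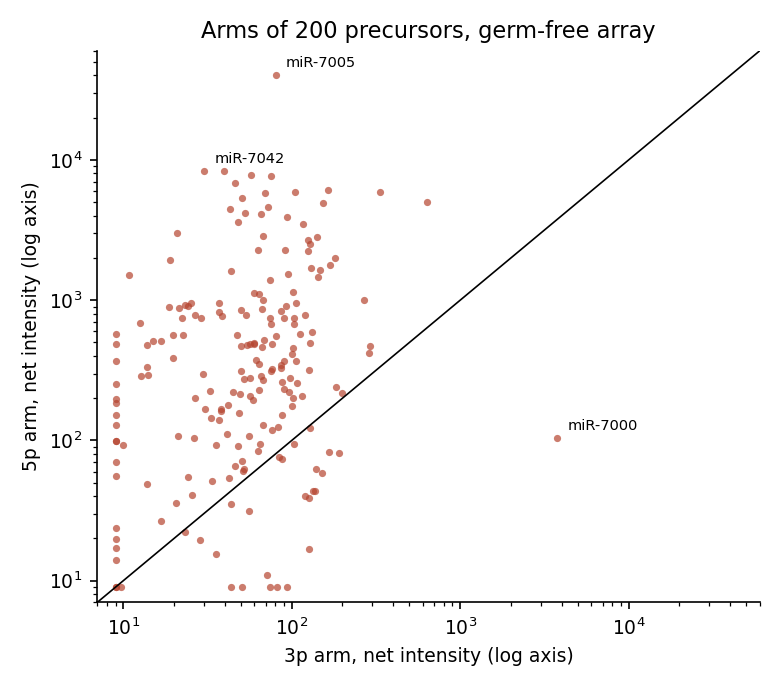
Net intensity on the germ-free array of the 5p arm (vertical log axis) against the 3p arm (horizontal log axis) of 200 precursors, with values under the floor drawn at the floor. The line marks equal signal: 172 points lie above it, miR-7005 farthest up, and miR-7000 lies far below.

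Brightness among the members went with their G and GC share alike. The Spearman correlation of level (the geometric mean of both arrays) with G share was 0.58 across the 176 members with a sequence. It was also 0.58 with GC share, -0.39 with U share, -0.00 with C share and -0.05 with length. The members share the arrays and a probe design and are not independent, so these are descriptions. In the 3p arms, level followed the C share instead (0.71, 177 arms), and with G share the value was -0.28. Across 1261 other miRNAs the correlation with G share was 0.35. With GC share it was 0.52 in the 3p arms and 0.50 in those others.

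At a matched G share the members were not brighter throughout. From 30% to under 40% G, the median level was 88.4 in 47 members and 42.0 in 289 other miRNAs (3p arms included here). From 40% to under 50% it was 303 in 66 members and 220 in 133 others. At 50% G or more it was 737 in 55 members and 1431 in 62 others, so there the order turned. The 67 members with GGGG had a median level of 572, and the 109 without had 213. The median net intensity on the germ-free array was 530 for the 10 members with both arms at the intron's ends, with a median G share of 54.4%. It was 311 for the 145 with only the 3p arm there, with a median G share of 43.5%. The part of G share in that difference was not tested.

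**Figure D4:**
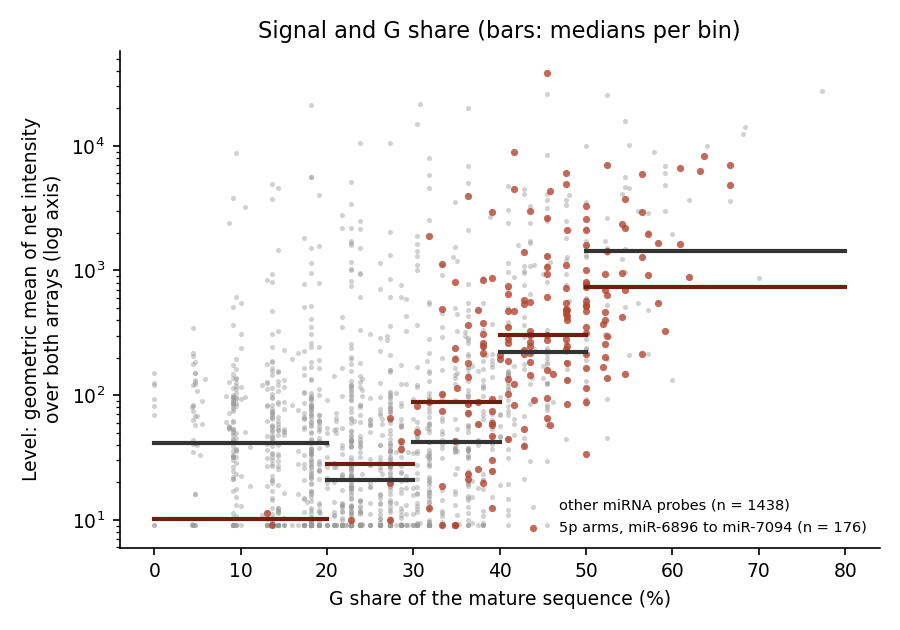
Level (geometric mean of net intensity over both arrays, vertical log axis) against the G share of the mature sequence in % (horizontal axis) for 176 members (red) and 1438 other miRNA probes (grey), with horizontal bars at the median of each bin. The median of the members climbs to 737 at 50% G or more, where that of the other probes is 1431.

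Between germ-free and SPF cells the members differed little. Values are log2 of SPF over germ-free net intensity, with SPF values multiplied by 0.849 so that the median of the 1471 miRNA probes above the floor on both arrays is equal. The median over the 189 members above the floor on both arrays was -0.05 (middle range -0.19 to 0.14), against -0.06 (-0.27 to 0.18) over all 1471. A difference under 0.5 was seen in 173 of the 189 (91.5%), against 83.1% of all and 91.7% of the 181 3p arms of the same numbers above the floor on both arrays. No member was at least 2-fold higher on the SPF array, where 1.56% of the 1471 were. At least 2-fold lower were 3 members (1.59%), where 1.43% of the 1471 were, so that share is near the background. With the stricter floor none of 176 members was 2-fold higher (1.54% of all 1041 probes above it were) and 1 was 2-fold lower (0.57%, against 0.768% of the 1041). The SD over the members was 0.30, against 0.42 over the 1282 other probes and 0.33 over those 3p arms. Bright control probes that are printed many times on each array gave a technical SD of 0.13 for a log2 difference, and this holds no spread from one array to another.

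Differences were split by level to separate dim from bright spots. At a level above 1000, 43 members ran from -1.28 to 0.47 and 1 was at least 2-fold different, while 140 other probes ran from -1.31 to 1.62 with 7 at least 2-fold different. From 300 to 1000, 61 members ran from -0.46 to 0.58 with none, and 106 others from -1.61 to 1.70 with 7. Under 30, 2 of 8 members and 13 of 286 other probes were at least 2-fold different.

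**Figure D5:**
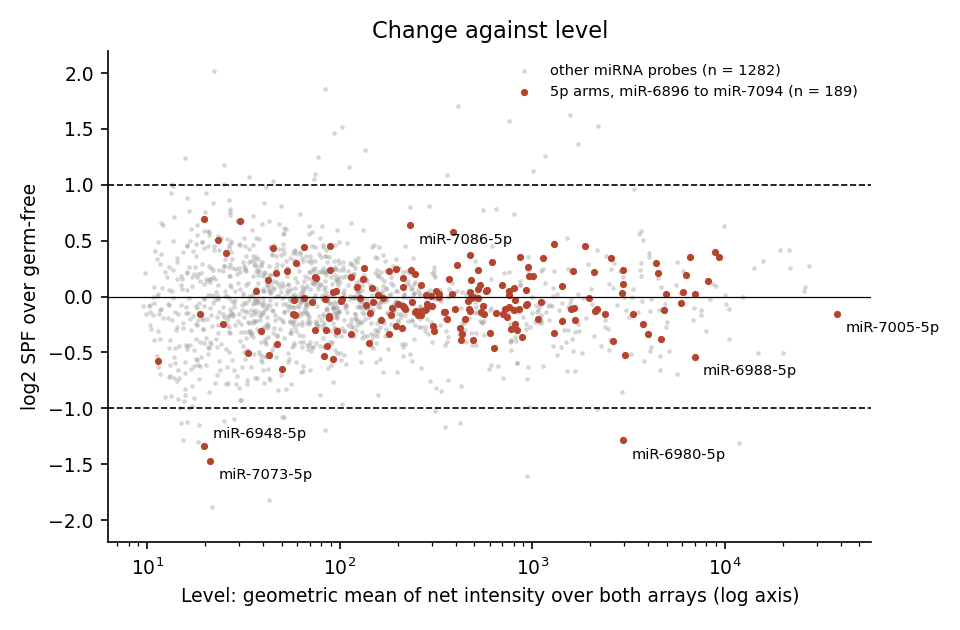
Log2 SPF over germ-free (vertical axis) against level (horizontal log axis) for 189 members (red) and 1282 other miRNA probes (grey) above the floor on both arrays, with dashed lines at 2-fold. No red point lies above the upper line, and 3 lie below the lower: miR-6980-5p at high signal, miR-7073-5p and miR-6948-5p near the floor.

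miR-6980-5p was the bright member with a 2-fold difference. Its net intensity was 4637 in the germ-free sample, in place 55 of all miRNA probes, and 2246 in the SPF sample, in place 117. The log2 value was -1.28, and it stayed between -1.37 and -1.05 over the 11 other ways of processing tried. Its 3p probe stood at 72.1 and 75.8, at -0.16. miR-7073-5p, in Cnot1, the scaffold of the CCR4-NOT deadenylase, had 35.2 and 14.99 and a value of -1.47. miR-6948-5p, in Acin1, had 31.5 and 14.6 and a value of -1.34. Both were under the stricter floor, and without background subtraction they stood at -0.19 and -0.16.

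Of the members above the stricter floor, the next lowest was miR-7043-5p in Rassf4, with net 63.0 and 47.4 and a value of -0.65. It was followed by miR-6918-5p at -0.56, miR-6988-5p at -0.54, miR-7090-5p in the beta-catenin gene Ctnnb1 at -0.53 and miR-7033-5p in the nuclear pore gene Pom121 at -0.52. miR-7050-5p stood at -0.46 and miR-7071-5p at -0.44. Of these, miR-6988-5p and miR-7033-5p (3617 and 2961) were bright, and miR-7033-5p was at 0.39 with each spot's local background subtracted.

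Above the stricter floor, the highest was miR-7086-5p, at 0.64, with net 186 (germ-free) and 340 (SPF). It lies at chr9:45266682-45266702 on the minus strand, in an intron of Il10ra, the ligand-binding chain of the receptor for interleukin-10, a cytokine that restrains inflammation in the colon. Its 3p arm ends on the last base of that intron, and the 3p probe lay under the floor on both arrays. Under the stricter floor on at least 1 array, miR-7055-5p (0.70, net 15.4 and 29.4) and miR-6992-5p (0.68, net 23.8 and 44.99) had higher values. Both are mentioned here because of those values. miR-7055-5p is also named for a shared seed, and miR-6992-5p by no rule. The value of miR-7086-5p stayed between 0.39 and 1.35 over the other ways of processing. The hairpin is shown with the 5p arm in capitals.
miR-7086: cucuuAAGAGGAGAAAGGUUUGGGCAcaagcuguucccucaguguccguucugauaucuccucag

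miR-7023-5p followed at 0.58 (net 317 and 559), then miR-6922-5p at 0.47 (1099 and 1794), in Srebf1, which encodes a regulator of lipid synthesis. miR-6952-5p and miR-6908-5p, the latter in the pyridoxal kinase gene Pdxk, were both at 0.45. miR-7093-5p was at 0.45, miR-6960-5p at 0.43 and miR-6955-5p at 0.40. These 8, the highest above the stricter floor, all kept a positive value under every scaling between the arrays that was tried. By place on the array, the members' medians ran from -0.31 to 0.35 over its 32 blocks of spots, which hold 4 to 8 members each. Medians of so few values vary, and an effect of place was not tested. With block medians removed, 29 of the 67 named members with a value, high or low, moved by 0.13 or more, and 38 did not. With local background subtracted, miR-6952-5p was at -0.28 and miR-6960-5p at -0.74, while miR-6922-5p was at 2.33 and miR-6955-5p at 1.49.

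A pair of members in lymphotoxin genes was chosen after the values were seen. miR-6974-5p opens a hairpin that spans the 83-base intron of Lta, which encodes lymphotoxin alpha, and stood at net 176 and 180, a value of -0.21. miR-6973a-5p, in Ltb, which encodes lymphotoxin beta, stood at 327 and 384, a value of -0.01.

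Markers of cell types differed between the samples. All 7 leukocyte miRNAs listed as markers were above the floor on both arrays, with a median of -0.59 and a range from -1.31 to 0.74. Of these, 5 were lower on the SPF array and 2 higher, miR-223-3p at 0.74 and miR-146a-5p at 0.07. The summed net intensity of the 7 was 31615 (germ-free) and 16881 (SPF, scaled). Most of the germ-free sum came from miR-150-5p alone, at net 18699 and a value of -1.31. All 8 epithelial miRNAs (miR-200 family, miR-192, miR-194, miR-215) were at least 2-fold higher on the SPF array, with a median of 1.31, and their sum went from 5458 to 14529. Both erythroid miRNAs were lower, at -0.77 and -0.27. Of 4 muscle miRNAs, miR-1a-3p was under the floor on both arrays and the others were at 0.05 to 0.45, and 3 stromal and endothelial miRNAs ran from -0.34 to 0.25. The part of cell makeup in the members' values was not tested. In such bulk RNA, fewer cells of a type cannot be told apart from less of the RNA per cell.

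Seeds were shared by few members. Of the 176 with a sequence, 39 had a seed in common with another member, in 18 groups, 3 of them with 3 members and 15 with 2. The brightest probe of a group was between 1.09 and 95.7 times as bright as the dimmest, with a median of 2.69. The widest gap separated miR-7005-5p from miR-6975-5p (net 414 and 452), which has the same seed CUGGGGA. miR-6914-5p (3938 and 5714) and miR-6904-5p (65.5 and 76.3) share CCUGGGG and were also over 10-fold apart. The closest were miR-7010-5p at 202 and 189 and miR-7027-5p at 215 and 212, with the seed GGAAAGG. The 3 groups of 3 are shown with the seed in capitals.

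The seed GGGGAGG was held by miR-7030-5p at net 950 and 1271, miR-7075-5p at 751 and 817 and miR-7076-5p at 1124 and 1280. The seed GUGGGAG was held by miR-6922-5p, miR-6993-5p (333 and 327) and miR-7008-5p (489 and 534), and outside the range by miR-705 (833 and 1052). The seed GGGCUGA was held by miR-6911-5p (167 and 230), miR-7028-5p (472 and 541) and miR-7079-5p (289 and 314), and outside the range by miR-7662-5p (178 and 157). Within the second group the log2 values were 0.47, -0.26 and -0.11, so a shared seed did not go with one direction there.
miR-7030-5p: uGGGGAGGuggcugugcuaguc
miR-7075-5p: cGGGGAGGaggacaugguuuu
miR-7076-5p: aGGGGAGGugguauggucuca
miR-6922-5p: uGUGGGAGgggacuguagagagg
miR-6993-5p: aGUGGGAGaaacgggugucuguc
miR-7008-5p: uGUGGGAGaugccaggagccguac
miR-6911-5p: uGGGCUGAgugggucuguggcau
miR-7028-5p: uGGGCUGAggcuugggucaggag
miR-7079-5p: aGGGCUGAggcagugaguccug

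Pairs with the same seed did not all differ in the same direction either. Many of the values are smaller in size than the technical SD of 0.13, and such a sign can change with the scaling. miR-6960-5p and miR-7093-5p (seed AGGAUGA) stood at 0.43 and 0.45, and miR-7010-5p and miR-7027-5p at -0.34 and -0.26. miR-7034-5p and miR-7071-5p (seed CCGGGAG) stood at 0.02 and -0.44. miR-6904-5p and miR-6914-5p (seed CCUGGGG) stood at -0.02 and 0.30, and miR-6975-5p and miR-7005-5p (seed CUGGGGA) at -0.11 and -0.15. The remaining pairs were miR-6907-5p (-0.15) with miR-7019-5p (-0.33), miR-6916-5p (0.06) with miR-6942-5p (-0.08), miR-6927-5p (-0.14) with miR-7070-5p (-0.07), miR-6941-5p (-0.20) with miR-7024-5p (0.00) and miR-6965-5p (-0.25) with miR-7047-5p (0.11). To these come miR-6967-5p (0.03) with miR-7016-5p (-0.01), miR-6990-5p (-0.11) with miR-7032-5p (0.07), miR-6999-5p (-0.03) with miR-7054-5p (0.04), miR-7012-5p (-0.14) with miR-7057-5p (-0.39) and miR-6926-5p (-0.05) with the dim miR-7055-5p (0.70).

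The measured differences of a precursor's arms between the arrays went together only loosely. In 173 precursors with both arms above the floor on both arrays, 106 pairs had the same sign, and the Spearman correlation of the log2 values of 5p and 3p was 0.21. Spot noise (technical SD 0.13) can lower such a correlation, and its part was not tested. Of the 201 3p arms, 133 passed the stricter floor on both arrays. The correlation of their levels was 0.23 across 200 precursors. Between the arrays, the net intensities of the 200 members correlated at 0.99. The points share arrays and labelling, and these values are descriptions.

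Mirtrons described earlier, outside the number range, varied in level and in the gap between their arms. Of their 5p probes, only miR-1224-5p was above the members' medians of 326 (germ-free) and 382 (SPF). miR-1224-5p stood at net 3428 and 4574, a value of 0.18, while miR-1224-3p stood at 131 and 134. miR-877-5p and miR-877-3p stood at 214 and 178 on the germ-free array, with values of -0.06 and -0.03. miR-702-5p (215 and 255) stood above miR-702-3p (99.9 on both arrays), and miR-1981-5p (58.6 and 68.9) at -0.00 beside miR-1981-3p at 0.74. The 5p probe was thus the brighter arm in all 4 on the germ-free array, and in miR-1981 the 3p probe was the brighter one on the SPF array.

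At the lower end of the range, miR-6896-5p stood at net 94.6 and 97.4 and miR-6897-5p at 43.3 and 59.15. At the upper end, miR-7092-5p stood at 14.0 and 11.03 and miR-7093-5p at 55.7 and 89.4. Just outside were miR-6769b-5p at 10394 and 11679 and miR-7115-5p at 1115 and 1428. miR-7094-1-5p and miR-7094b-2-5p, left out by name, stood at 20.3 and 32.0 and at 52.1 and 64.1.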

How the data were processed

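Each array has 3200 spots. Per the file headers, a spot has a deposited median intensity, from scans at 3 gains, and the median of its surroundings as local background. Per the labels, RNA was labelled with Hy5. Probe sequences and scanner software were not used here. Groups come from the sample titles. The blank mean (128.5 germ-free, 896 spots; 158.3 SPF, 895 spots after leaving out 1 marked NG) was subtracted from each deposited intensity, and SPF values were multiplied by 0.849. Named members were the 12 brightest, the 8 highest and 8 lowest above the floor from 174 spots without a probe, all at least 2-fold different, up to 3 that passed the floor on a single array, for each array, all that share a seed, the 5 highest and 5 lowest ratios of 5p to 3p, and the ends of the range. Members, lists and rules were chosen with earlier results of these data known. The log2 procedure was tested on simulated arrays. Python 3.11.15, pandas 2.3.3 and statsmodels 0.14.6 were used. Alternatives were other scalings, backgrounds, floors, a pseudocount and fold thresholds.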

Additional observations from a re-analysis of the deposited data

How the results depend on the processing

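Each comparison rests on 1 array per group and 1 spot per probe. No member was at least 2-fold higher on the SPF array under 5 other scalings, 2 other floors, a pseudocount, no background subtraction or removal of block medians. With local background subtracted 15 of 189 were higher and 4 lower, where 97 and 51 of all 1436 shared probes were. At a threshold of 1.5-fold 3 were higher (1.59%, against 4.62% of all 1471). Of the 3 at least 2-fold lower, 1 was left when no background was subtracted, 1 under the no-probe floor, 1 under a doubled floor, and 0 at a threshold of 3-fold, where over all probes 3 of 1471, 6 of 1041, 11 of 1291 and 3 of 1471 were lower. At both floors fewer probes were tested, and the scaling was fitted anew on those probes. With the scaling of the main values kept, 8 of the 1041 probes above the no-probe floor were lower. A 3-fold threshold can only pass fewer members, and without subtraction the background stays in every value. The members' median of -0.05 was 0.18 without scaling, where the median of all shared probes moved from -0.06 to 0.18, and 149 members were higher and 40 lower, against 77 and 112 with scaling. With spike controls set equal, both medians were lower (-0.14 and -0.15) and 53 members were higher and 136 lower. Both scalings shift all probes by the same amount, so 31 of 67 named members, whose values lie within those shifts of 0, miR-7005-5p included, take the other sign. Local background went with net intensity across the 200 members (Spearman 0.98 and 0.91). The blank mean is the same for both arms of an array, so leaving it in cannot change the counts of brighter 5p arms. When the brighter arm also had to pass the no-probe floor, those counts stayed within 1.5-fold. Without background subtraction the correlations with G, GC and U share moved by less than 0.05. That alternative hardly changes the order of levels, so it is a weak check. No paired analysis was possible because each group has 1 array.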

Other observations

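Mature sequences that share a run of bases gave signals that were close in some pairs and far apart in others. miR-7005-5p and miR-23a-5p share a run of 13 bases, the longest found between a member and a miRNA outside the range, yet miR-23a-5p stood at net 200 (germ-free) and 213 (SPF), against 40202 and 42579. miR-6937-5p and miR-7047-5p also share 13 bases and were closer, at 4200 and 2840 on the germ-free array. miR-7036a-5p shares 12 bases with miR-6769b-5p, at 6056 and 10394. Runs of 12 bases were also shared by miR-6914-5p and miR-7044-5p, at 3938 and 5861 on the germ-free array. The same held for miR-6942-5p and miR-7082-5p (220 and 1005) and for miR-6976-5p and miR-7226-5p (16.9 and 77.6).

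Host genes with a pair of members gave unequal signals. In Ankrd52, miR-6914-5p stood at net 3938 on the germ-free array and miR-6915-5p at 84.7. In Srebf1, miR-6922-5p stood at 1099 and miR-6921-5p at 563, with log2 SPF over germ-free of 0.47 and 0.05. In Cmip, miR-7078-5p stood at 484 and miR-7077-5p at 254, with 0.23 and 0.10.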
